A study of Mus musculus with 6 samples.

Results

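The genes described here build and police the folding compartment of the secretory pathway, the endoplasmic reticulum (ER). They were 33 mouse genes chosen by name, and a gene counted as measured where a probe set (a group of array probes read as 1 value) carried that gene's symbol alone. All 33 were measured, out of 19938 genes with such a probe set, and all 33 passed the filter on dim probe sets. By role they were 4 stress sensors, 17 chaperones and folding enzymes, and 12 genes of ER-associated degradation. Xbp1, which encodes a transcription factor and not a sensor, was counted among the sensors throughout.

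RNA came from the liver of 3-month-old female mice on the C57BL/6 background, starved for 6 h before death, with 1 array per mouse. The 3 LmnaG609G/G609G knock-in mice (replicates 1, 3 and 5) are homozygous for an allele of Lmna, the gene of lamins A and C, that causes aberrant splicing and models the premature ageing syndrome Hutchinson-Gilford progeria. As a knock-in it is present in every cell, not in liver alone. The 3 wild-type mice (replicates 2, 4 and 6) carry no such allele. Each array holds RNA of whole liver, in which fewer cells of a type and less RNA per cell cannot be told apart.

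Secreted proteins enter the ER as unfolded chains. Chaperones of the HSP70 and HSP90 families, sugar-binding lectins and disulfide isomerases fold them there. Chains that fail are recognised, passed through a membrane channel built around the ubiquitin ligase Syvn1, pulled out by the ATPase Vcp and destroyed by the proteasome. When unfolded chains build up, the sensors IRE1 (encoded by Ern1), ATF6 and PERK start the unfolded protein response: IRE1 splices the mRNA of the transcription factor XBP1, and ATF6 is cut to release a transcription factor. Both raise transcription of chaperone and degradation genes. The hepatocyte, which exports most plasma proteins, depends heavily on this machinery.

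ATF6 and XBP1 are known to act through the ER stress element (ERSE), so promoters that hold it are shown first. Of the 33 genes, 29 had a promoter window in the RefSeq sequences (GRCm38.p6), covering 250 bases before and 50 after the annotated start. It consists of CCAAT and CCACG with 9 bases between them, was searched on both strands and was found in 9 of these 29 genes (31.0%), against 37 of all 27025 genes with a window (0.137%). The shorter ERSE-II, ATTGG and CCACG with 1 base between them, was found in 2 of the 29, against 0.0444% of all genes. The XBP1 site TGACGTGG was found in Vcp alone (3.45% of the 29, 0.714% of all genes), and the ATF4-type site TTGCATCA in Herpud1 alone (1.03% of all genes). None of these matches in the 29 windows overlaps another. In the 3 windows printed whole the capitals mark the fixed letters of the ERSE, read on the strand of the gene. They were chosen as a chaperone with no called difference (Hspa5), a chaperone that fell (Calr) and a degradation gene that rose (Syvn1).
Hspa5, chr2:34771840-34772139, plus strand: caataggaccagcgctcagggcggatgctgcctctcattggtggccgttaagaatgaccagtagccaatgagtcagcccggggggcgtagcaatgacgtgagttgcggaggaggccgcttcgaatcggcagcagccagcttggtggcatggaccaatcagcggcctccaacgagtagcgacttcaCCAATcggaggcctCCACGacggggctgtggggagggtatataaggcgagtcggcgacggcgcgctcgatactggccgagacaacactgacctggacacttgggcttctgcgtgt
Calr, chr8:84846882-84847181, minus strand: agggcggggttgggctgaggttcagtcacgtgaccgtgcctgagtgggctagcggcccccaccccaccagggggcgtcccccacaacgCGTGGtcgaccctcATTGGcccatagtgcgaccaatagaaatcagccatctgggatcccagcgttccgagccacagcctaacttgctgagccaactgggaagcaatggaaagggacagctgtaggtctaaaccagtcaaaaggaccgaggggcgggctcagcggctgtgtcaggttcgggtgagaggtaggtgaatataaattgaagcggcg
Syvn1, chr19:6046326-6046625, plus strand: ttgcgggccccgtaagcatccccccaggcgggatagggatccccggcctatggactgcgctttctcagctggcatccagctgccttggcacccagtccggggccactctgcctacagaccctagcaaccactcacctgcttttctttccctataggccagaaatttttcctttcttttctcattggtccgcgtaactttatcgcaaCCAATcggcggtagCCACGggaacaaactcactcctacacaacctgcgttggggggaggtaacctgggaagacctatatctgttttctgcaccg

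In Calr the motif reads on the opposite strand, so that CGTGG precedes ATTGG. The other members with an ERSE or ERSE-II are given as the motif with 20 bases on each side, to show how the spacer of 9 bases varies while the ends are fixed.
Hsp90b1 (upstream copy), chr10:86705618-86705676, minus strand: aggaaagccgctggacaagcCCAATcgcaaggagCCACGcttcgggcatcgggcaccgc
Hsp90b1 (downstream copy), chr10:86705513-86705571, minus strand: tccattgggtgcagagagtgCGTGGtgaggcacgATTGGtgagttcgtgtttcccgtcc
Canx, chr11:50325780-50325838, minus strand: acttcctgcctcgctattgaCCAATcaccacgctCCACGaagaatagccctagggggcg
Pdia6, chr12:17266471-17266529, plus strand: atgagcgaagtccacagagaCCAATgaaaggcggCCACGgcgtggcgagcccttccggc
Dnajc3, chr14:118937807-118937865, plus strand: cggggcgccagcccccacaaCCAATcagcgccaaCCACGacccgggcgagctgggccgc
Creld2, chr15:88819500-88819558, plus strand: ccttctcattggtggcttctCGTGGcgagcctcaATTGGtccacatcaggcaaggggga
Derl3, chr10:75893222-75893280, plus strand: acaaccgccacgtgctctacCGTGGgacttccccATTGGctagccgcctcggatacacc
Herpud1 (ERSE-II), chr8:94386357-94386407, plus strand: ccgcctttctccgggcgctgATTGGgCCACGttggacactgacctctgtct
Dnajb11 (ERSE-II), chr16:22857832-22857882, plus strand: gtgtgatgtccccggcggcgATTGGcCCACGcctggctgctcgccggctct

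The 10 ERSE matches began 44 to 212 bases upstream of the annotated start. A match describes the sequence and does not show that a factor binds there. The members were chosen by name as genes of this machinery, so their higher share of matches is a description and was not tested. Atf6, Manf, Hyou1 and Derl1 had no window.

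Array medians lay between 97.0 and 104 intensity units, and values entered the fit as log2(intensity + 16). Hepatocyte markers were present in both genotypes: their sum over 8 genes was 105556 to 114622 in knock-in and 105328 to 109751 in wild-type mice. Of these 8, Hnf4a rose (log2 change 0.84 ± 0.09, limma adjusted p = 0.00110) and 0 fell, while 2 were higher and 1 lower at an unadjusted p below 0.05. Over all tested probe sets, 10087 of 26664 had an unadjusted limma p below 0.05 in either direction. Lmna had no called difference (log2 change -0.17 ± 0.13 SE, limma adjusted p = 0.398), and its single value does not separate the splice forms. Knock-in replicate 3 stood nearer to wild type than the other knock-in mice: its correlation with the wild-type arrays over all probe sets was 0.978 to 0.981, against 0.968 to 0.971 for replicate 1 and 0.964 to 0.968 for replicate 5. Each mouse is a separate animal by its label, so p-values weigh the difference between genotypes against the spread between mice. For each probe set limma adjusts that spread with information from all tested probe sets. A gene was called higher or lower where limma's Benjamini-Hochberg adjusted p, over all 26664 tested probe sets, was below 0.05. By that rule 25.9% of tested probe sets were called (15.0% higher, 10.9% lower), and 33.5% of the 17761 at or above the median intensity (18.9% higher, 14.6% lower), where all 33 members lie.

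Of the 33 genes, 6 rose, 5 fell and 22 were not called in knock-in liver. That is 33.3% called, above the 25.9% of all tested probe sets and level with the 33.5% of the brighter ones. The 6 that rose were the sensor genes Atf6 and Atf6b and the degradation genes Ufd1, Syvn1, Herpud1 and Edem3. The 5 that fell were the folding genes Pdia4, Pdia6 and Calr and the degradation genes Derl2 and Vcp. The median log2 change was 0.27 over the 4 sensors, -0.30 over the 17 chaperones and -0.14 over the 12 degradation genes, beside 0.03 over all tested probe sets. With knock-in mouse 3 omitted, 12 fell. Omitting knock-in mouse 1, or wild-type mouse 2, left 2 that rose and 1 that fell. The calls of Atf6, Ufd1 and Vcp held whichever mouse was left out. A fit with 1 mouse left out holds fewer mice, so a call can be lost although the change is no smaller.

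**Figure D1:**
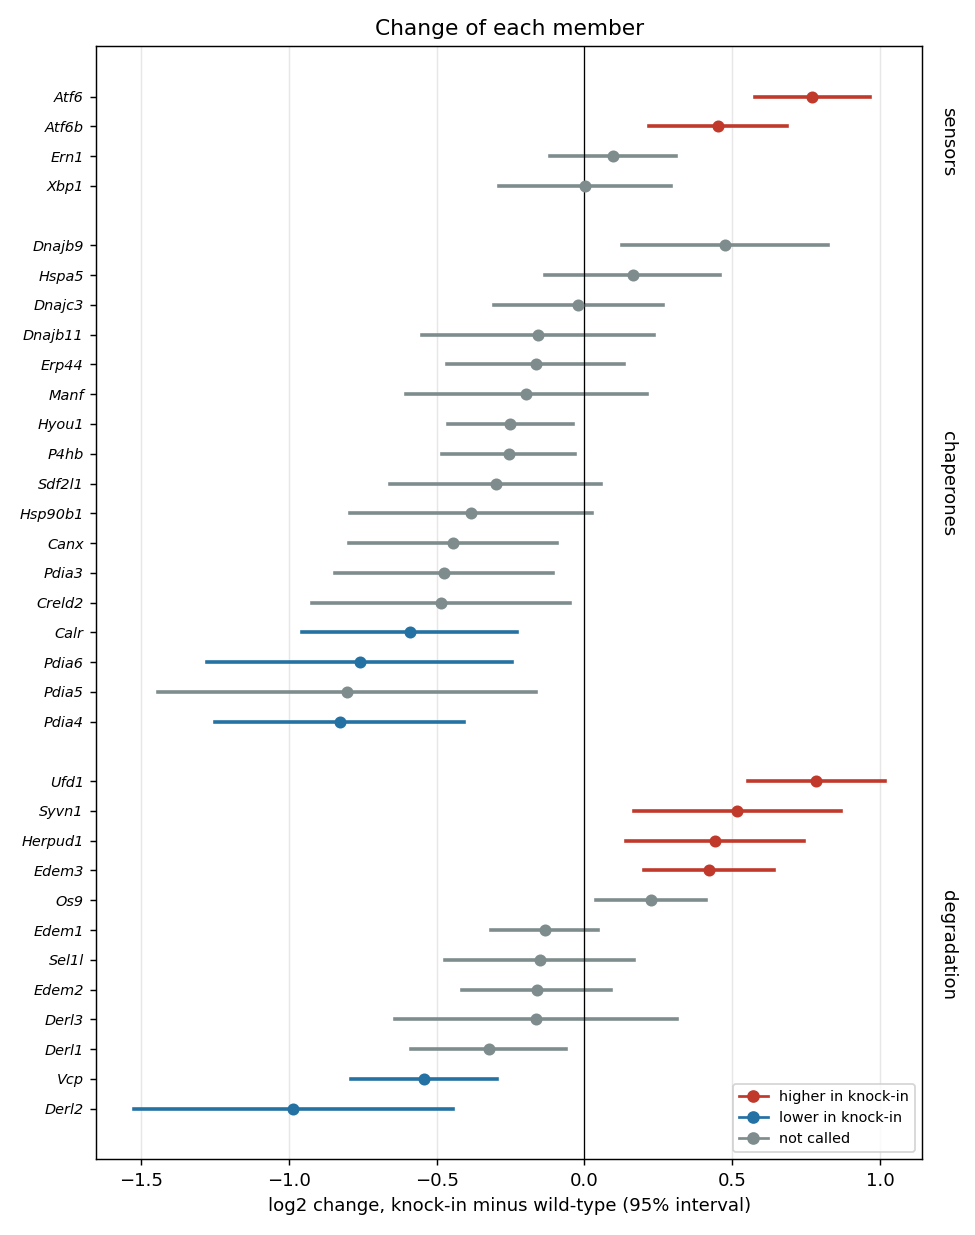
Log2 change of each of the 33 genes in knock-in against wild-type liver (points) with its 95% interval from limma (lines), by class, with 3 mice per genotype. Red marks the 6 genes that rose, blue the 5 that fell and grey the 22 not called. Called rises lie among sensors and degradation genes, and called falls among chaperones and degradation genes.

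The sensor genes split into a pair that rose and a pair that did not differ beyond the spread between mice. Atf6, which encodes the sensor that is itself a transcription factor, read 2297, 2307 and 2393 in knock-in mice (replicates 1, 3 and 5 in this order throughout), against 1322, 1435 and 1327 in wild-type mice (replicates 2, 4 and 6). The genotypes did not overlap, and the knock-in mice stood close together. Atf6 averaged 2332 ± 52.8 in knock-in and 1361 ± 63.8 in wild-type mice (SD, n = 3 each), a log2 change of 0.77 ± 0.08 (SE; 1.71-fold higher; limma adjusted p = 0.00117). Leaving out single mice kept its adjusted p between 0.00135 and 0.00891. Its paralogue Atf6b read 409, 360 and 435 in knock-in mice, against 286, 291 and 288 in wild-type mice. All 3 knock-in values lay above the wild-type values, which lay close together. The log2 change of Atf6b was 0.45 ± 0.10 (1.37-fold higher; limma adjusted p = 0.0153), and omitting knock-in mouse 1, wild-type mouse 2 or wild-type mouse 6 took it past the threshold (adjusted p = 0.0563 to 0.0583).

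Ern1, which encodes IRE1, read 1223, 1279 and 1280 in knock-in mice, against 1095, 1246 and 1197 in wild-type mice. The groups overlapped, with a log2 change of 0.10 (95% interval -0.12 to 0.31; limma adjusted p = 0.505). Xbp1, whose mRNA IRE1 splices, read 3066, 2720 and 2469 in knock-in mice, against 3165, 2604 and 2487 in wild-type mice. The 3 values of each genotype covered the same range, and the interval of the log2 change was -0.29 to 0.29 (limma adjusted p = 0.994). One probe set gives the total signal of Xbp1, so spliced and unspliced forms are not separated. The cutting of the ATF6 protein was likewise not measured.

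**Figure D2:**
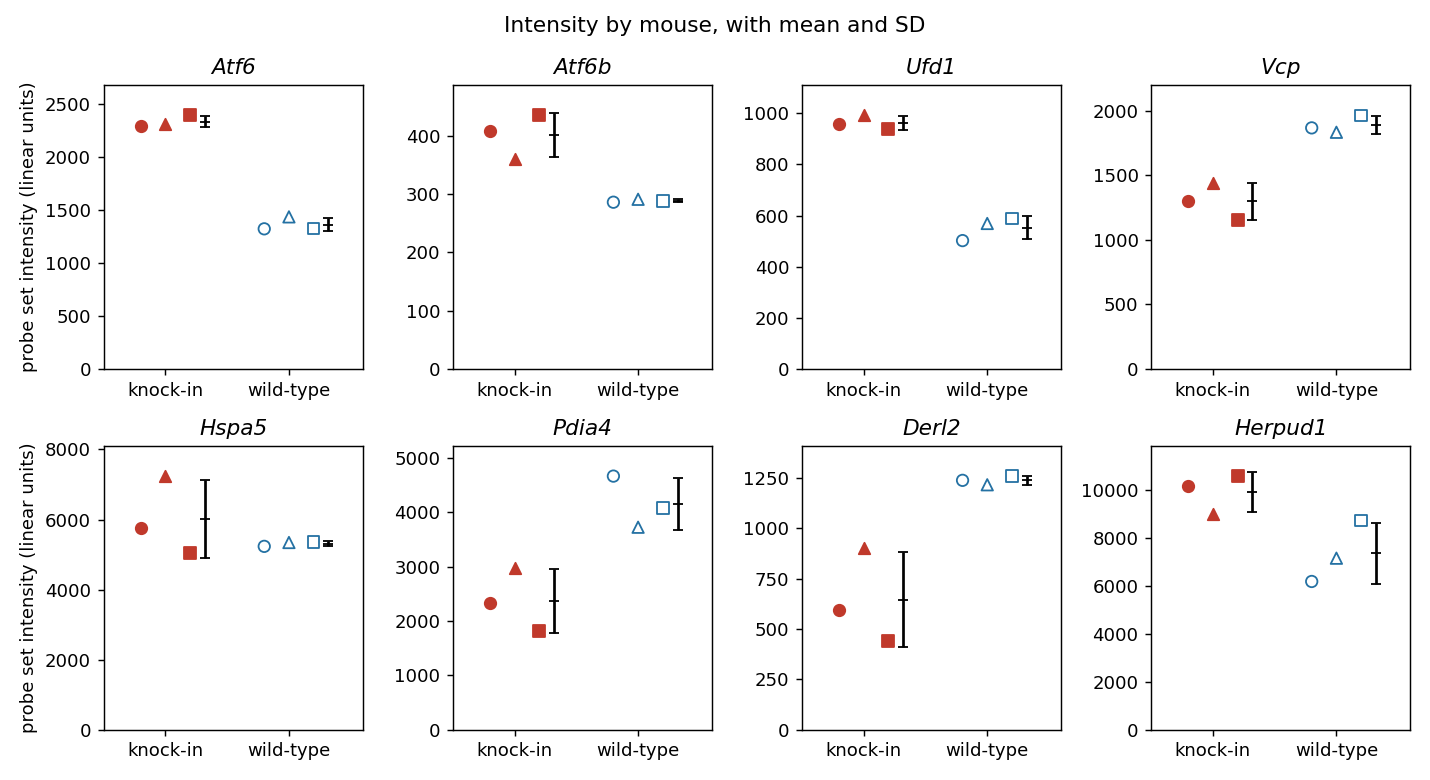
Probe set intensity (linear units, axis from 0) of 8 members in each mouse. Filled red symbols are knock-in mice (circle replicate 1, triangle replicate 3, square replicate 5), open blue symbols are wild-type mice (circle replicate 2, triangle replicate 4, square replicate 6), and black bars are the mean and SD of 3 mice. Atf6, Ufd1 and Vcp separate the genotypes with little spread, while Derl2 and Pdia4 range widely over the knock-in mice.

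Among the chaperones, 3 of 17 fell (17.6%), 0 rose and 14 were not called. Of the probe sets at or above the median intensity, 14.6% fell and 18.9% rose. At an unadjusted limma p below 0.05, 9 chaperones were lower and 1 was higher, beside 10087 of the 26664 tested probe sets in either direction. The log2 change was negative for 15 of the 17, with Hspa5 and Dnajb9 the exceptions. Its median over the tested probe sets at or above the median intensity was 0.03. All 17 were read in the same mice, so they are not independent counts. Of the 17, 8 lay lower without overlap. Over all tested probe sets, dim ones included, 17.2% lay lower in this way, and 41.2% did not overlap in either direction. These shares were not taken over the brighter probe sets alone.

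The disulfide isomerases, which make and rearrange disulfide bonds, held the largest differences in this class. Pdia4, which encodes ERp72, read 2332, 2978 and 1805 in knock-in mice, against 4662, 3722 and 4074 in wild-type mice. Every knock-in value was lower than every wild-type value. The mean was 2372 ± 588 in knock-in and 4153 ± 475 in wild-type mice (SD), 1.77-fold lower at -0.83 ± 0.18 on the log2 scale (limma adjusted p = 0.0144). A second, dimmer probe set of Pdia4 read 196, 211 and 138 in knock-in mice, against 299, 299 and 307 in wild-type mice, with a log2 change of -0.70 ± 0.15. Both probe sets of the gene thus fell (limma adjusted p = 0.0130 for the second). With knock-in mouse 1 or with wild-type mouse 2 omitted, the brighter one missed the threshold (adjusted p = 0.0522 and 0.0541).

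Pdia6, another isomerase, read 639, 1002 and 628 in knock-in mice, against 1605, 1063 and 1176 in wild-type mice. The groups were narrowly apart, knock-in replicate 3 lying close to wild-type replicate 4. Its log2 change was -0.76 ± 0.22 (1.69-fold lower; limma adjusted p = 0.0405), and of the 6 fits that left out 1 mouse, the one without knock-in replicate 3 alone kept the call (adjusted p = 0.00697, against 0.0525 to 0.135 in the others). With no filter on dim probe sets Pdia6 was not called either (adjusted p = 0.0644). Pdia5 read 793, 1311 and 566 in knock-in mice, against 1618, 1514 and 1310 in wild-type mice. Knock-in replicate 3 stood just above the lowest wild-type mouse, and the log2 change of -0.80 ± 0.27 was not called (limma adjusted p = 0.0691). Without that mouse it was -1.12 (adjusted p = 0.00323), and without knock-in replicate 5 it was -0.53 (adjusted p = 0.147).

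Pdia3, which encodes ERp57, the isomerase that works with the lectin chaperones, read 2406, 2794 and 1850 in knock-in mice, against 3621, 2982 and 3108 in wild-type mice. P4hb, which encodes the archetypal protein disulfide isomerase and also the beta subunit of collagen prolyl hydroxylase, read 5738, 6723 and 5301 in knock-in mice, against 7251, 6815 and 7047 in wild-type mice. Neither gene overlapped between genotypes, yet neither was called, with log2 changes of -0.47 ± 0.16 and -0.26 ± 0.10 (limma adjusted p = 0.0641 and 0.0932). Erp44, which retrieves escaped clients to the ER, had overlapping groups and a log2 change of -0.16 (95% interval -0.46 to 0.13). In all 6 isomerase genes, replicate 3 was the highest and replicate 5 the lowest of the knock-in mice.

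Calr and Canx encode calreticulin and calnexin, the lectins that hold glycoproteins while they fold. Calr read 3453, 4585 and 2988 in knock-in mice, against 6000, 5263 and 5134 in wild-type mice. The groups did not overlap, and the log2 change was -0.59 ± 0.16 (1.51-fold lower; limma adjusted p = 0.0290). That call rests on few mice: it stood without knock-in replicate 3 (adjusted p = 0.00256) and was lost in the other 5 such fits (adjusted p = 0.0600 to 0.0979). Canx read 4636, 6313 and 4145 in knock-in mice, against 7215, 6434 and 6599 in wild-type mice. The groups were apart, with a log2 change of -0.44 ± 0.15 that was not called (limma adjusted p = 0.0674), of -0.62 without knock-in replicate 3 (adjusted p = 0.00285) and of -0.32 without knock-in replicate 5 (adjusted p = 0.174).

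Hspa5 encodes BiP, the HSP70 chaperone that also holds the sensors inactive, and is the customary readout of ER stress. It read 5762, 7240 and 5043 in knock-in mice, against 5234, 5344 and 5361 in wild-type mice. The wild-type values lay inside the knock-in range, which was far wider (SD 1120.1 in knock-in, 68.9 in wild-type mice). The log2 change was 0.16 (95% interval -0.13 to 0.46; limma adjusted p = 0.411) and 0.02 without knock-in replicate 3. Hsp90b1, which encodes the ER HSP90 chaperone GRP94, read 4481, 6080 and 3601 in knock-in mice, against 6426, 5727 and 5941 in wild-type mice. Knock-in replicate 3 lay within the wild-type range and its 2 companions below it. The log2 change of Hsp90b1 was -0.38 ± 0.18 (limma adjusted p = 0.155), -0.58 without that mouse (adjusted p = 0.00872) and -0.21 without replicate 5 (adjusted p = 0.371). Hyou1, a nucleotide exchange factor for BiP, read 993, 1114 and 1086 in knock-in mice, against 1310, 1247 and 1249 in wild-type mice. The groups were apart and the change small, at -0.25 ± 0.09 on the log2 scale (limma adjusted p = 0.0815), passing with centred arrays (adjusted p = 0.0490) and with array weights (adjusted p = 0.0358), while fits with 1 mouse left out gave 0.0634 to 0.242.

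Of the J-domain proteins, which set BiP to work, Dnajb9 went the other way. It encodes ERdj4, which also restrains IRE1, and read 2500, 2480 and 1953 in knock-in mice, against 1386, 1889 and 1708 in wild-type mice. All knock-in values were higher, with a log2 change of 0.48 ± 0.15 (1.39-fold higher) at a limma adjusted p of 0.0525, just past the threshold. With the stricter filter on dim probe sets the adjusted p was 0.0391, with quantile normalization 0.0454 and with array weights 0.0223. It was 0.0770 with centred arrays, 0.0765 with no filter and between 0.0339 and 0.165 with 1 mouse left out, where the log2 change was as low as 0.35. Dnajc3, which encodes a BiP co-chaperone and inhibitor of PERK, had a log2 change of -0.02 (95% interval -0.31 to 0.27). Its 2 probe sets held identical values and count as 1 measurement. Dnajb11, which encodes ERdj3, changed by -0.16 (95% interval -0.55 to 0.24). Its partner gene Sdf2l1 read 545, 477 and 512 in knock-in mice, against 799, 568 and 557 in wild-type mice, apart but not called (log2 change -0.30 ± 0.15; limma adjusted p = 0.198).

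Manf and Creld2 encode small proteins that ER stress induces and that can be secreted. Manf read 324, 329 and 210 in knock-in mice, against 314, 357 and 308 in wild-type mice, and without the low knock-in replicate 5 its log2 change was 0.0035. Creld2 read 585, 660 and 434 in knock-in mice, against 825, 635 and 897 in wild-type mice. Both overlapped and were not called, with log2 changes of -0.20 ± 0.17 for Manf and -0.48 ± 0.19 for Creld2 (limma adjusted p = 0.473 and 0.0997).

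**Figure D3:**
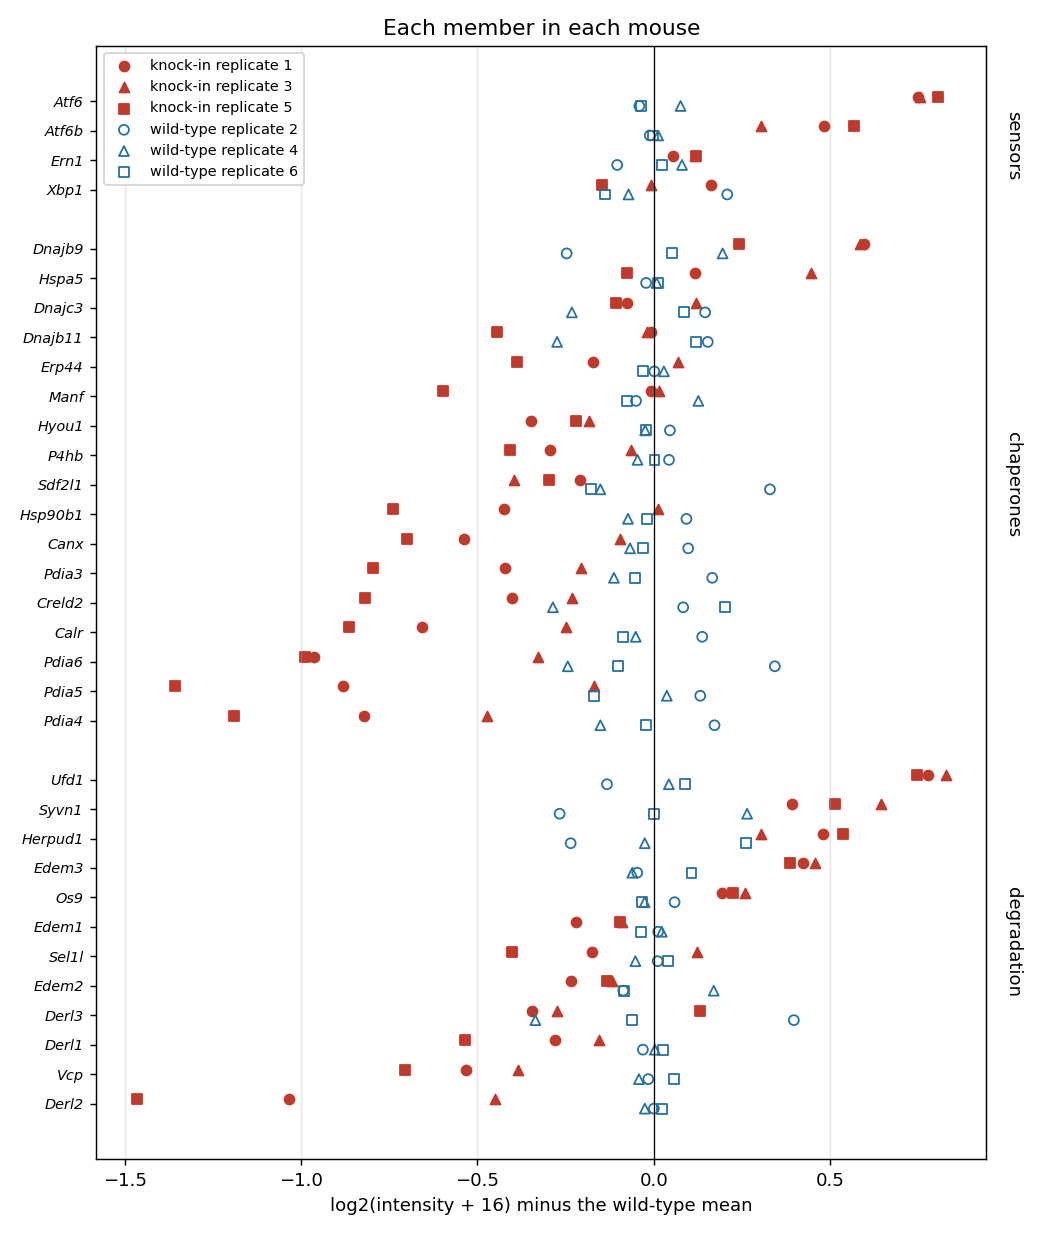
Each of the 33 genes in each mouse, as log2(intensity + 16) minus the wild-type mean of the gene, by class. Filled red symbols are the 3 knock-in mice and open blue symbols the 3 wild-type mice. Among the chaperones the knock-in triangles (replicate 3) mostly lie nearest to 0 and the squares (replicate 5) mostly farthest below it.

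The degradation genes moved in both directions, with 4 of 12 higher (33.3%), 2 lower (16.7%) and 6 not called. Of the probe sets at or above the median intensity, 18.9% were called higher and 14.6% lower. In 10 of the 12 the genotypes did not overlap, 5 higher and 5 lower. The background for no overlap was 24.0% of all tested probe sets higher and 17.2% lower. That background includes dim probe sets, and no such share was taken over the brighter ones, where all members lie.

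Recognition of failed glycoproteins is the work of the EDEM proteins, which trim mannose, and of the lectin OS-9. Edem3 read 698, 716 and 680 in knock-in mice, against 500, 495 and 558 in wild-type mice. It rose without overlap, by 0.42 ± 0.09 on the log2 scale (1.34-fold higher; limma adjusted p = 0.0156), and missed the threshold with knock-in mouse 1 or with wild-type mouse 2 omitted (adjusted p = 0.0583 and 0.0650). Edem1 read 2758, 3018 and 3011 in knock-in mice, against 3244, 3267 and 3136 in wild-type mice, and Edem2 559, 607 and 601 in knock-in mice, against 621, 745 and 622 in wild-type mice. These paralogues lay slightly lower without overlap and were not called (log2 change -0.14 ± 0.08 for Edem1 and -0.16 ± 0.11 for Edem2; limma adjusted p = 0.257 and 0.330). Os9 read 2096, 2195 and 2142 in knock-in mice, against 1909, 1799 and 1789 in wild-type mice. It was higher in every knock-in mouse, with a log2 change of 0.23 ± 0.08 (limma adjusted p = 0.0783) that passed with quantile normalization (adjusted p = 0.0389) and had an adjusted p of 0.174 with centred arrays.

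The ligase complex in the ER membrane held 2 genes that rose and 1 that fell. Syvn1, which encodes the ubiquitin ligase Hrd1, read 940, 1124 and 1025 in knock-in mice, against 590, 860 and 714 in wild-type mice. The groups were apart, with a log2 change of 0.52 ± 0.15 (1.43-fold higher; limma adjusted p = 0.0403). Only the fit without wild-type replicate 4 kept this call among those that left out 1 mouse (adjusted p = 0.0225, against 0.0743 to 0.116 in the others). Syvn1 was also not called with no filter (adjusted p = 0.0586), and with centred arrays its adjusted p was 0.0499. Sel1l, which encodes the adaptor that stabilises Hrd1, read 1608, 1978 and 1372 in knock-in mice, against 1831, 1752 and 1869 in wild-type mice. Its knock-in mice lay on both sides of the wild-type range, with a log2 change of -0.15 (95% interval -0.47 to 0.17).

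Herpud1, the gene of a stress-induced scaffold of the same complex, read 10160, 9003 and 10581 in knock-in mice, against 6184, 7156 and 8729 in wild-type mice. Its lowest knock-in value stood just above its highest wild-type value. The log2 change was 0.44 ± 0.13 (1.36-fold higher; limma adjusted p = 0.0422), and the call was lost with quantile normalization, centred arrays, no filter, eBayes without trend or array weights (adjusted p = 0.0530 to 0.0754). Omitting any mouse other than knock-in 3 or wild-type 6 lost it too (adjusted p = 0.105 to 0.124).

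The derlins, which form part of the membrane channel, were all lower in mean. Derl2 read 596, 901 and 438 in knock-in mice, against 1238, 1216 and 1259 in wild-type mice. Every knock-in mouse was below wild type, and the knock-in SD of 235 stood beside a wild-type SD of 21.5. It had the largest fall of the 33 genes, at -0.98 ± 0.23 on the log2 scale (1.98-fold lower; limma adjusted p = 0.0190). The call of Derl2 was lost when knock-in mouse 1 or any single wild-type mouse was omitted (adjusted p = 0.0550 to 0.0682), and without knock-in replicate 3 the change was -1.25 (adjusted p = 0.00121). Derl1 read 1894, 2066 and 1583 in knock-in mice, against 2253, 2307 and 2346 in wild-type mice. It lay lower without overlap and was not called (log2 change -0.32 ± 0.11; limma adjusted p = 0.0728). Derl3, at 122, 129 and 176 in knock-in mice and 215, 123 and 152 in wild-type mice, overlapped (95% interval of the log2 change -0.64 to 0.31).

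Extraction from the membrane is done by the ATPase Vcp (p97) with its cofactors Ufd1 and Npl4, and the genes of the first pair moved in opposite directions. Ufd1 read 957, 992 and 937 in knock-in mice, against 502, 569 and 588 in wild-type mice. It showed a wide gap between tight groups and the largest rise of the 33 genes, at 0.78 ± 0.10 on the log2 scale (1.72-fold higher; limma adjusted p = 0.00195). Vcp read 1299, 1441 and 1152 in knock-in mice, against 1867, 1833 and 1964 in wild-type mice. It fell without overlap, by -0.54 ± 0.11 on the log2 scale (1.46-fold lower; limma adjusted p = 0.00952). Leaving out single mice kept the adjusted p between 0.00281 and 0.0127 for Ufd1 and between 0.00413 and 0.0426 for Vcp. Nploc4, the gene of Npl4, named here after its values were seen, read 3340, 2901 and 3983 in knock-in mice, against 2641, 2762 and 2682 in wild-type mice. It was apart from wild type and not called (log2 change 0.33 ± 0.12; limma adjusted p = 0.0878).

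The knock-in mice stood farther apart from each other in the chaperone median than in the sensor median, a difference given as values with no test. As a median over the 17 chaperones, knock-in replicates 1, 3 and 5 stood at -0.35, -0.09 and -0.60 on the log2 scale from the wild-type mean, and wild-type replicates 2, 4 and 6 at 0.10, -0.07 and -0.02. As a median over the 4 sensors the knock-in mice stood at 0.32, 0.21 and 0.34. Replicate 5 was the lowest of the knock-in mice in 15 of the 17 chaperones and replicate 3 the highest in 14, shares that were 30.3% and 39.3% over all tested probe sets. This order was not particular to the chaperones. Replicate 3 was the highest in 10 of the 12 degradation genes and replicate 5 the lowest in 6. In 30 translocon and glycosylation genes, read below, these counts were 28 and 22. They were 23 and 19 in 32 other folding genes, and 22 and 21 in 38 other degradation genes. The median SD of log2 values over the chaperones was 0.30 in knock-in and 0.15 in wild-type mice, and over all tested probe sets 0.12 in knock-in and 0.11 in wild-type mice. In all 5 members that fell, replicate 3 was the knock-in mouse nearest to the wild-type mean, as in 73.2% of all probe sets that fell. The 6 that rose had each knock-in mouse nearest in 2 cases, whereas over all probe sets that rose replicate 1 was nearest in 18.2%, replicate 3 in 59.1% and replicate 5 in 22.6%.

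**Figure D4:**
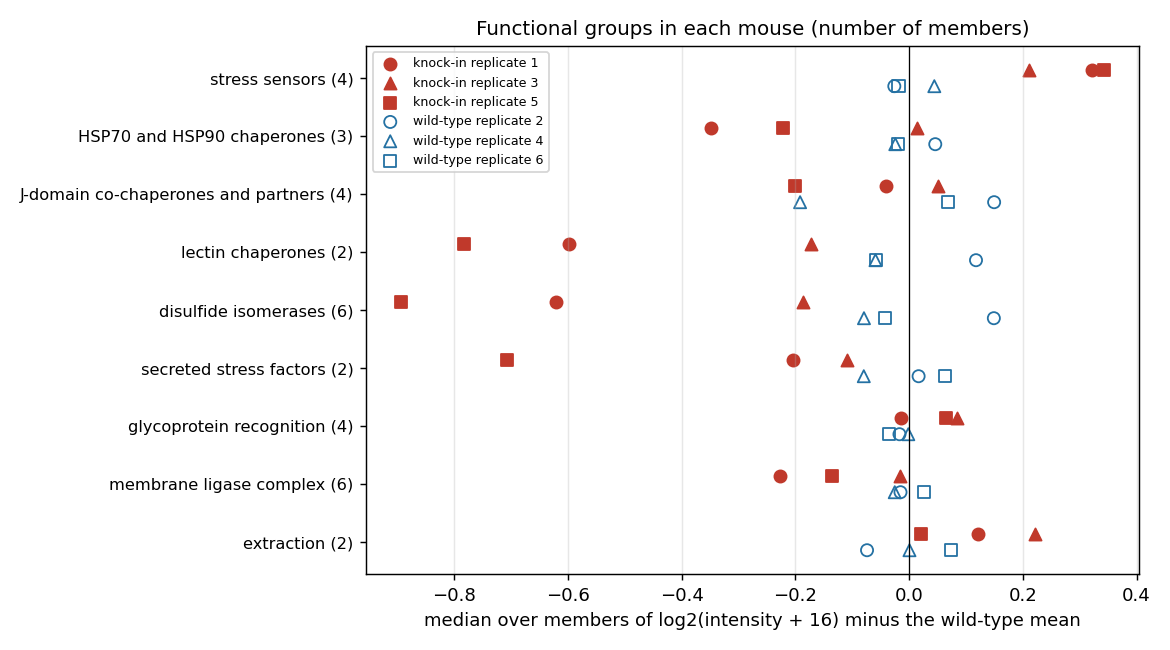
Median over the members of each functional group of log2(intensity + 16) minus the wild-type mean, 1 point per mouse, with the number of members in brackets. Filled red symbols are knock-in mice and open blue symbols wild-type mice. The knock-in mice spread most in the isomerases, lectins and secreted factors, where replicate 5 (square) is lowest.

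Without knock-in replicate 3, 12 members fell, 9 of them chaperones: Calr, Canx, Hsp90b1, Creld2, P4hb, Pdia3, Pdia4, Pdia5 and Pdia6. With limma's array weights, which give arrays that depart from their group less weight, 12 members fell as well, and 11 of these were the same genes. The direction of these genes was the same in all fits, as in the fit of all 6 mice. All 5 genes that fell over the 6 mice were among both sets of 12.

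Members with an ERSE were found among those that rose, those that fell and those not called. Of the 9 members with one, Syvn1 rose, Calr and Pdia6 fell, and Hspa5, Hsp90b1, Canx, Dnajc3, Creld2 and Derl3 were not called, with a median log2 change of -0.38. Of the 20 members with a window and no ERSE, 4 rose and 3 fell, with a median of -0.15. All of the 9 except Syvn1 and Derl3 are chaperones, a class with a median of -0.30, so motif and class were not separated. Only exact matches within the window were counted, so a variant or more distant element would be missed. The members with ERSE-II were Herpud1, which rose, and Dnajb11, which was not called. The windows of Hspa5, Calr and Syvn1 shown whole belong to 1 gene of each kind.

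Other genes of the same machinery were read in 4 further lists. Beside them, 15.0% of all tested probe sets rose and 10.9% fell. Of those at or above the median intensity, 18.9% rose and 14.6% fell. Of 10 other sensors and regulators tested, 1 rose and 2 fell, with a median log2 change of 0.09. Eif2ak3, which encodes the sensor PERK, read 489, 417 and 481 in knock-in mice, against 298, 316 and 286 in wild-type mice. It rose without overlap, by 0.60 ± 0.10 on the log2 scale (1.51-fold higher; limma adjusted p = 0.00572), so that the genes of PERK and both ATF6 forms rose while Ern1 was not called. Creb3l3, which encodes the ATF6-related liver factor CREBH, read 455, 714 and 321 in knock-in mice, against 1518, 1275 and 1617 in wild-type mice. It fell by -1.60 ± 0.26 (3.03-fold lower; limma adjusted p = 0.00485), further than any of the 33 members. Tmbim6, which encodes Bax inhibitor 1, an ER membrane protein that restrains IRE1, fell by -0.43 ± 0.11 (limma adjusted p = 0.0228). Creb3l1 had a log2 change of 0.23 ± 0.09 that was not called (limma adjusted p = 0.111).

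Of 32 other folding genes tested, 6 rose (18.75%) and 10 fell (31.25%), with a median of -0.18. Prdx4, which encodes the ER peroxiredoxin that passes oxidising power to the isomerases, read 173, 241 and 146 in knock-in mice, against 525, 394 and 445 in wild-type mice. It fell 2.35-fold, by -1.23 ± 0.19 on the log2 scale (limma adjusted p = 0.00355). Mlec, the gene of the ER lectin malectin, fell by -1.17 ± 0.13 (limma adjusted p = 0.00148), read by the brighter of its 2 probe sets alone. Tmx4 and Txndc11, which encode membrane-bound thioredoxin-like proteins, rose by 0.75 ± 0.10 and 0.84 ± 0.14 (limma adjusted p = 0.00258 and 0.00550).

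Of 38 other degradation genes tested, 5 rose (13.2%) and 6 fell (15.8%), with a median of 0.10. Ube2g2 and Ube2j1, which encode the ubiquitin-conjugating enzymes of this pathway, rose by 0.97 ± 0.13 and 0.62 ± 0.10 (limma adjusted p = 0.00266 and 0.00458). Rnf5, a membrane ubiquitin ligase gene, fell by -0.97 ± 0.18, and Svip, which encodes a Vcp-binding inhibitor of the pathway, by -0.64 ± 0.11 (limma adjusted p = 0.00711 and 0.00677). Of 30 genes of the translocon and of N-glycosylation tested, 1 rose (3.33%) and 7 fell (23.3%), with a median of -0.24. Ost4 and Ddost, subunits of the oligosaccharyltransferase, fell by -0.72 ± 0.13 and -0.55 ± 0.14 (limma adjusted p = 0.00737 and 0.0238). The channel subunit gene Sec61b, read by the brightest of its 3 probe sets alone, fell by -0.60 ± 0.15 (limma adjusted p = 0.0237). Srpr, the gene of the signal recognition particle receptor, rose by 0.41 ± 0.11 (limma adjusted p = 0.0294). Of the 30, 12 fell without knock-in replicate 3 and 1 with knock-in mouse 1 or 5, or wild-type mouse 2 or 6, omitted.

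**Figure D5:**
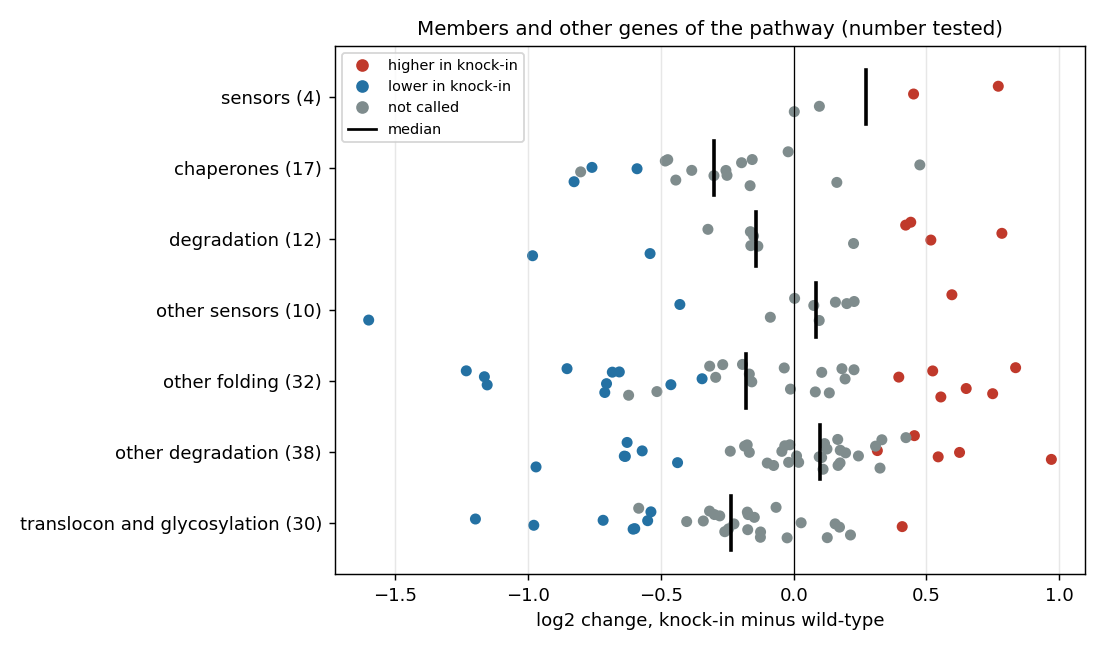
Log2 change, knock-in minus wild-type, of each tested gene in the 3 classes of members and in 4 lists of other genes of the same machinery. Points are genes (red higher, blue lower, grey not called), black bars are medians, and the number of genes tested is in brackets; vertical scatter within a row only separates points. The folding, translocon and chaperone rows have medians below 0, the sensor rows above it.

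Markers of other cell types were read on the same arrays. Over all tested probe sets 15.0% were called higher and 10.9% lower, and 10087 of 26664 had an unadjusted limma p below 0.05. Kupffer cell and macrophage markers had a summed intensity of 3125 to 5681 in knock-in and 4798 to 8205 in wild-type mice, with 0 of 9 higher and 1 lower (Adgre1) by limma, and 1 higher and 4 lower at an unadjusted p below 0.05. Their median from the wild-type mean was -0.29, -0.11 and -0.95 in knock-in replicates 1, 3 and 5. It was 0.37, -0.04 and -0.32 in wild-type replicates 2, 4 and 6. The knock-in mice stood in the same order as in the chaperones, and the wild-type mice did not. Stellate cell and fibroblast markers summed to 1759 to 2401 in knock-in and 2603 to 2954 in wild-type mice, with Lrat lower among 7. Endothelial markers summed to 4765 to 6669 in knock-in and 5758 to 6131 in wild-type mice, with 1 of 7 higher (Lyve1) and 3 lower (Kdr, Stab2 and Clec4g). Clec4g was read by the brighter of its 2 probe sets alone. Neutrophil markers summed to 632 to 665 in knock-in and 482 to 512 in wild-type mice, with Retnlg, S100a8 and Mmp9 higher among 8 tested. The part of these cells in the changes above was not tested.

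Cells rich in ER, such as plasma cells and pancreatic acinar cells, left little signal. Plasma cell and B cell markers summed to 487 to 519 in knock-in and 547 to 602 in wild-type mice over 8 probe sets, with Cd79b lower, and Jchain, Cd79a and Ms4a1 under the filter. Acinar markers summed to 747 to 827 in knock-in and 700 to 784 in wild-type mice over 9 probe sets, with 0 of 8 called and 1 at an unadjusted limma p below 0.05. Cholangiocyte markers summed to 386 to 411 in knock-in and 385 to 411 in wild-type mice, and T cell and NK cell markers to 411 to 426 in knock-in and 411 to 467 in wild-type mice. None of the tested markers of these last 2 lists was called by limma, and 1 had an unadjusted p below 0.05.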

How the data were processed

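The authors deposited 1 table of linear, whole-number array intensities for 35512 probe sets. Per the labels' protocols, RNeasy-purified RNA was made into cDNA, and in vitro transcription gave biotin-labelled copies. Probe summarisation, background correction and normalization are not given in the sources used here. Probe sets were named by the platform annotation, which can be old: 21789 had 1 gene symbol, 1621 several and 12102 none. Ufd1l was matched to its current symbol Ufd1.

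Intensities were taken as log2(value + 16), so folds of dim genes are understated. Array medians differed by 0.087 on that scale, under the limit of 0.1 for rescaling, and were left as deposited. On plain log2 they differed by 0.1005, just over the limit, so the choice of scale decided this, and centred arrays were tried as an alternative. Probe sets with a mean under the 25th percentile were left out. The rest were fitted with limma 3.58.1 in R 4.3.3 (eBayes with trend), knock-in minus wild-type. A gene was represented by its brightest single-symbol probe set. Other gene lists are named by the 4 smallest p-values and, where present, the 2 smallest in the rarer direction. Members and lists were chosen with earlier results of these data known. The procedure was tested on simulated data in which the changes set were larger than that of any member. That test does not bear on calls of the size seen in the members. Array number (3 per genotype) limits the precision.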

Additional observations from a re-analysis of the deposited data

How the results depend on the processing

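No paired analysis was possible because the genotypes share no replicate numbers in the labels. Results were recomputed with a pseudocount of 1 or 64, with quantile-normalized or median-centred arrays, with a filter at the 50th percentile or none, with eBayes lacking its trend, with array weights, with probe set means per gene and with each mouse left out. With 1 mouse left out, 2427 to 4293 probe sets rose and 1810 to 3457 fell, and of the members 2 to 6 rose and 1 to 12 fell. The degradation median ran from -0.14 to -0.047, the chaperone median from -0.38 to -0.23 and the sensor median from 0.24 to 0.31. Other sensors had 1 to 2 lower. Other folding genes had 3 to 5 higher and 6 to 14 lower, other degradation genes 2 to 7 higher and 2 to 6 lower, and translocon and glycosylation genes 0 to 1 higher and 1 to 12 lower. With array weights, 12 members fell, 8 other degradation genes rose and 11 translocon and glycosylation genes fell. With centred arrays, 3 other degradation genes and 0 translocon and glycosylation genes rose, and 3141 probe sets rose and 3426 fell. Without the filter, 3 translocon and glycosylation genes fell, and of the members 4 rose and 4 fell, Herpud1, Syvn1 and Pdia6 no longer being called. Dnajc3, Xbp1, Manf and Derl3, members with no called difference, took the other sign in some fits. Dnajc3 was 0.013 with quantile normalization and -0.14 to 0.052 with 1 mouse left out. Xbp1 was -0.049 with centred arrays and -0.078 to 0.11 with 1 mouse left out. Manf ran from -0.30 to 0.0035 and Derl3 from -0.33 to 0.036 with 1 mouse left out. The cause of these shifts was not tested. Signals near the filter intensity of 38.7 carry little information on change.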

Other observations

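Outside the 33 members, 28 genes carry the exact ERSE in their promoter window, and 10 of them were tested. Acacb, which encodes the acetyl-CoA carboxylase of the mitochondrial surface, fell by -1.39 on the log2 scale (limma adjusted p = 0.00993). Ero1b, which encodes an oxidase that recharges disulfide isomerases, fell by -0.71 (limma adjusted p = 0.0309). Pan2, a gene of mRNA deadenylation, rose by 0.38 (limma adjusted p = 0.0488). The other 7 were not called, among them Alg12, a mannosyltransferase gene of N-glycan assembly (log2 change -0.21, limma adjusted p = 0.274), and the median of the 10 was -0.13.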
